A study of Sus scrofa with 4 samples.

Results

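Matrix metalloproteinases (MMPs) are zinc proteases that cut collagens and other proteins of the extracellular matrix, and tissue inhibitors of metalloproteinases (TIMPs) bind and block them. The genes described here were taken by symbol from a list of 8, namely MMP1, MMP2, MMP3, MMP13, MMP14, TIMP1, TIMP2 and TIMP3. Of these 8 symbols, 6 had a row among the 21280 features of the deposited matrices. MMP1 and TIMP2 were not analysed here. The unique molecular identifier (UMI) counts of the 6 genes with a row were followed cell by cell in the pig knee meniscus, a fibrocartilage between femur and tibia. The 4 libraries came from the white zone of the medial and lateral meniscus and from the red zone of the medial and lateral meniscus, so that each zone and each meniscus had 2 libraries. In textbook anatomy the white zone is the inner part without vessels and the red zone the outer, vascularised part. The synovium was cut away before the zones were separated and the cells were released with pronase and then collagenase, per the labels. No animal, age, sex or breed is given there, so that p-values measure only the spread between these 4 libraries, which may be technical. The tests estimate that spread with information from all genes tested, so the p-value of a gene does not rest on the spread of that gene alone.

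The enzymes are made as inactive proenzymes and are activated by removal of a propeptide. MMP1 and MMP13 are collagenases, which cleave the triple helix of fibrillar collagen. MMP2 is a gelatinase that digests denatured collagen and basement membrane collagen, and MMP14, a membrane-anchored enzyme, activates it at the cell surface with TIMP2 as a bridge. MMP3, or stromelysin 1, cuts proteoglycans and activates other proenzymes. TIMP1 is a soluble inhibitor with little activity against MMP14, while TIMP3 binds to the matrix and also inhibits the aggrecan-cleaving ADAMTS enzymes. In meniscus and articular cartilage these enzymes are known from matrix turnover and from the breakdown of the tissue in osteoarthritis. All the levels below are of RNA and say nothing of enzyme activity.

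Each of the 6 rows carries an Ensembl identifier, and the RefSeq annotation of Sscrofa11.1, the build named in the submitters' processing notes, places 5 of them. MMP2 (ENSSSCG00000002829) lies at chr6:30059247-30087031 and MMP14 (ENSSSCG00000002039) at chr7:76174502-76185931. MMP13 (ENSSSCG00000014988) lies at chr9:33549003-33616700. TIMP1 (ENSSSCG00000012277) lies at chrX:42103251-42106289 and TIMP3 (ENSSSCG00000031866) at chr5:12185816-12242599. The row that the files call MMP3 (ENSSSCG00000014985) has no settled identity, because the reference table of gene names gives that identifier the symbol MMP1. RefSeq places MMP1 at chr9:33411738-33420205 and MMP3 beside it at chr9:33446969-33453995. The row is called MMP3 below as in the files, and each of its values may belong to the interstitial collagenase MMP1 instead.

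The matrices held 27782 barcodes, of which 27581 were kept. The kept cells numbered 7807 in the medial white, 7382 in the lateral white, 6803 in the medial red and 5589 in the lateral red library, with a median of 1455 to 1617 UMIs per cell. Between any 2 libraries 10 to 20 barcodes were shared. Cells were grouped by counting, for each of 13 lists of cell type markers, how many markers had a UMI, and a group needed at least 3 markers of its list and more than of any other. In this order of libraries, endothelial-like cells (with PECAM1 and VWF among the markers) numbered 199, 115, 762 and 649. Mural-like cells, which wrap vessels, numbered 110, 98, 836 and 783, and myeloid-like cells numbered 50, 72, 654 and 596. Fibrochondrocyte-like cells numbered 6173, 4621, 1643 and 1633, chondrocyte-like cells 610, 1271, 9 and 21, and fibroblast-like cells 7, 17, 1646 and 727. Cells with more markers of any of these 3 lists than of any other list are called matrix-like cells, of which there were 7310, 6852, 3664 and 2583. Matrix-like cells thus differed in makeup between zones. Their COL2A1, the cartilage collagen and one of the chondrocyte markers, stood at 7082 and 6242 CPM, that is UMIs of the gene per 1000000 UMIs of those cells, in the medial and lateral white libraries and at 99.5 and 642 CPM in the medial and lateral red libraries. In sums over all cells, fewer cells of a type and less RNA per cell cannot be told apart. No member is in a marker list.

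MMP2, the gelatinase, was lower in the white zone over all cells and in matrix-like, fibrochondrocyte-like and endothelial-like cells. Over all cells it had 29.1 CPM (433 UMIs) in the medial and 38.8 CPM (532 UMIs) in the lateral white library, against 752 CPM (8905 UMIs) in the medial and 447 CPM (4145 UMIs) in the lateral red library. Both white libraries lay far below both red libraries, 25.9-fold in the medial and 11.5-fold in the lateral meniscus. The log2 fold change of white over red was -3.62 ± 0.33 (SE; edgeR quasi-likelihood test, adjusted p = 0.000116, 2 libraries per zone). Of the 6 members tested, 5 passed an adjusted p of 0.05 in this comparison, where 39.8% of the 12463 genes tested passed, 17.8% higher and 22% lower in the white zone. With so many genes called, the count of members called is no result about the members, and the sizes are given for each.

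The difference in MMP2 was also present within the cells of the matrix. In matrix-like cells MMP2 stood at 28.4 and 39.1 CPM in the medial and lateral white libraries, against 1172 and 777 CPM in the medial and lateral red libraries (log2 fold change -4.50 ± 0.33 SE, edgeR adjusted p = 2.14e-08, with 35% of all genes tested called). The groups within them differed in level. Fibroblast-like cells of the red zone had 1453 CPM (medial) and 1180 CPM (lateral), above the fibrochondrocyte-like cells with 838 and 601 CPM, and the ranges of the 2 groups did not overlap. The 7 and 17 fibroblast-like cells of the medial and lateral white zone held 10 and 16 MMP2 UMIs, which make 1057 and 578 CPM, and the group was too small there to be tested. In fibrochondrocyte-like cells alone, which both zones hold in number, MMP2 stood at 30.3 and 47.6 CPM in the medial and lateral white libraries, against 838 and 601 CPM in the red libraries. The change there was -3.98 ± 0.29 on the log2 scale (SE, edgeR adjusted p = 6.79e-09), with 25.3% of genes called.

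**Figure D1:**
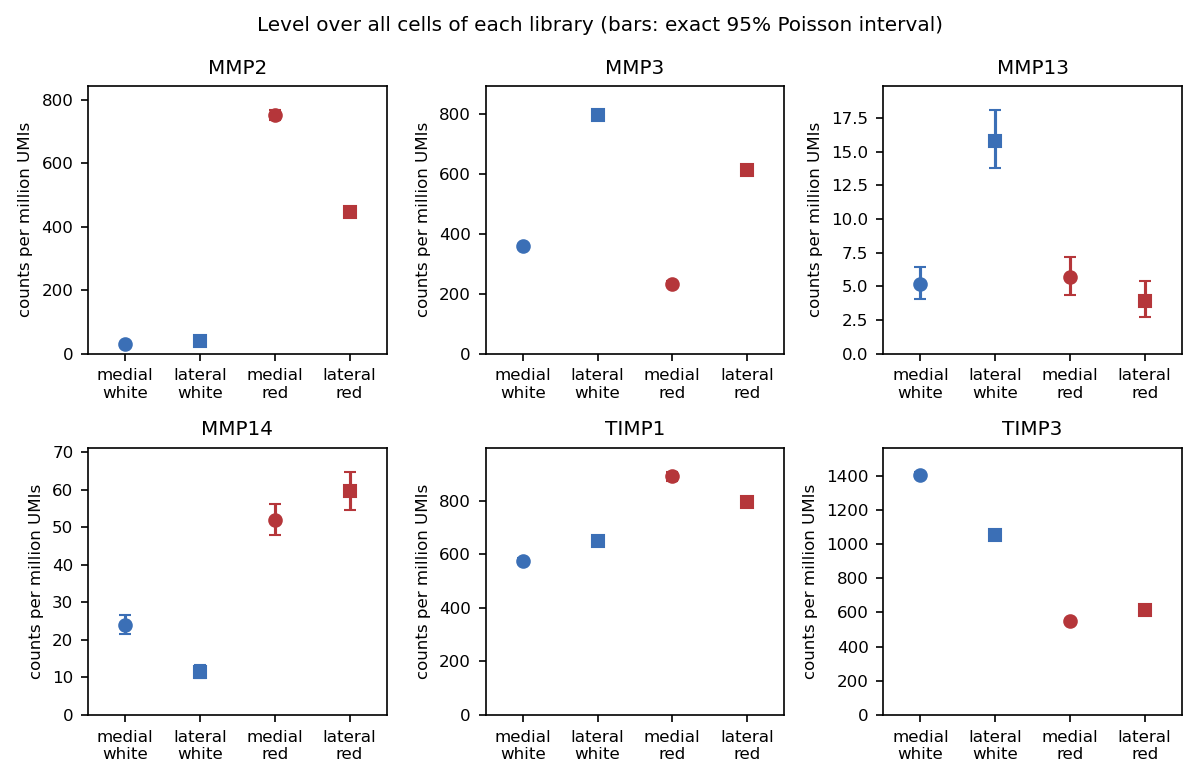
Level in CPM of each member over all cells of a library, with white zone libraries in blue and red zone libraries in red, circles for medial and squares for lateral menisci; bars are exact 95% Poisson intervals, which cover counting error only and are smaller than the symbol where not seen. MMP2 and MMP14 lie lower in both white libraries, TIMP3 lies higher in both, and MMP3 lies lower in the medial than in the lateral library of each zone.

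Single cells showed the same split. An MMP2 UMI was found in 4.16% of matrix-like cells of the medial white zone (exact 95% binomial interval 3.71 to 4.64) and in 5.40% of the lateral white zone (4.88 to 5.96). In the medial red zone the share was 72.5% (71.1 to 74.0) and in the lateral red zone 57.2% (55.3 to 59.1). Median depths were 1640, 1536, 1672.5 and 1720 UMIs per cell in that order. With every cell thinned to 1000 UMIs the shares were 2.35% and 3.21% in the white zone, against 57.6% and 42.4% in the red zone. In myeloid-like cells, which should hold little MMP2, 6.27% and 3.52% of medial and lateral red zone cells had a UMI, at median depths of 1367 and 1454. Neither the 33 and 39 T or NK cell-like cells of the medial and lateral red zone nor the 81 B or plasma cell-like cells of the lateral red zone held an MMP2 UMI. By a limit of 3 counts, 0 of 81 cells allows a share of up to 3.70% of cells with a UMI.

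In the red zone MMP2 was far lower in vessel and immune cells than in matrix cells. Its level there is given beside that of COL1A1, a gene of the matrix that free RNA or mixed cells would carry along, which does not measure the carry-over of MMP2 itself. In the white zone the 1 to 7 UMIs of the mural-like, endothelial-like and myeloid-like sums gave levels from 17.1% to 179% of the matrix-like level. Red zone endothelial-like cells had 157 CPM (medial) and 97.6 CPM (lateral), or 13.4% and 12.5% of the matrix-like level of the same library. COL1A1, the fibrous collagen, stood at 3.45% and 0.956% of its matrix-like level in the same cells. White zone endothelial-like cells had 16.2 CPM (medial) and 6.68 CPM (lateral), from 6 UMIs, all in 1 cell, and from 1 UMI. The change in endothelial-like cells was -3.58 ± 0.44 on the log2 scale (SE, edgeR adjusted p = 5.62e-14, 12.4% of genes called). In red zone myeloid-like cells MMP2 stood at 8.51% and 3.65% of the matrix-like level in the medial and lateral library, close to the 7.88% and 2.45% of COL1A1, and it did not pass the test there (-1.77 ± 0.69 SE, adjusted p = 0.115). Without the cells that also had 3 or more markers of a second list, red zone myeloid-like cells had 8.48 CPM (7 UMIs) in the medial and 18.4 CPM (15 UMIs) in the lateral library, and those of the white zone had no MMP2 UMI. The endothelial-like change was still called without such cells. The part of free RNA in these values was not tested.

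In mural-like cells MMP2 missed the threshold. They had 50.9 and 15 CPM in the medial and lateral white libraries, from 7 and 2 UMIs, against 105 and 99.7 CPM in the medial and lateral red libraries. The log2 fold change of -1.68 ± 0.47 (SE) had an adjusted p of 0.0568 by edgeR, and over the alternatives run the adjusted p ranged from 0.00346 to 0.628. None of the 5 members tested passed in mural-like cells by edgeR or by DESeq2, 1 had an unadjusted p under 0.05, and 3.34% of genes passed by edgeR. With all cells of the group, the zone effect on MMP2 differed from that in matrix-like cells, by 2.66 ± 0.68 on the log2 scale (SE, interaction in edgeR, adjusted p = 0.0137, 9.48% of genes called), and from that in fibrochondrocyte-like cells, by 2.13 ± 0.65 (SE, adjusted p = 0.0347, 8.11% called). Neither difference held without the cells that had markers of a second list, an alternative added after the data were seen. The mural-like cells left had 9.16 CPM (1 UMI) and 0 CPM in the medial and lateral white libraries, against 84.1 CPM (106 UMIs) and 82.5 CPM (95 UMIs) in the medial and lateral red libraries. The change in them was -4.13 (adjusted p = 0.0345), and it differed from that in matrix-like cells by 0.15 (adjusted p = 0.984) and from that in fibrochondrocyte-like cells by -0.39 (adjusted p = 0.922). All but 1 of the MMP2 UMIs of white zone mural-like cells thus lay in cells with a second list. The difference from fibrochondrocyte-like cells was also not called by DESeq2 (adjusted p = 0.0949) or with at least 2 markers (adjusted p = 0.0749), and over the alternatives its adjusted p ranged from 0.00377 to 0.922.

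MMP14, the membrane-anchored activator of MMP2, was also lower in the white zone, at much lower levels than MMP2 in the red zone. Over all cells it had 24.0 CPM (358 UMIs) in the medial and 11.4 CPM (157 UMIs) in the lateral white library, against 51.8 CPM (614 UMIs) in the medial and 59.6 CPM (553 UMIs) in the lateral red library. The groups did not overlap, and the log2 fold change was -1.23 ± 0.28 (SE, edgeR adjusted p = 0.00901). In matrix-like cells it stood at 22.2 and 7.66 CPM in the medial and lateral white zone and 59.0 and 59.0 CPM in the red zone (-1.79 ± 0.28 SE, adjusted p = 8.53e-05), and in fibrochondrocyte-like cells the change was -1.14 ± 0.28 (SE, adjusted p = 0.00464). The call in fibrochondrocyte-like cells was lost with DESeq2 (adjusted p = 0.076), without the meniscus as a term (0.118) and without any 1 of 3 libraries, and over the alternatives its adjusted p ranged from 6.52e-05 to 0.181. Over all cells the call was lost without the lateral red library (adjusted p = 0.0563, range over the alternatives 4.59e-08 to 0.0563). In matrix-like cells it was lost without the medial red library (adjusted p = 0.0633, range 8.04e-13 to 0.0633).

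MMP14 was not called between zones in myeloid-like, endothelial-like or mural-like cells. Myeloid-like cells, which use MMP14 to migrate, had the highest mean of the groups with 30 or more cells in both white libraries, with 130 CPM (11 UMIs) in the medial and 98.8 CPM (13 UMIs) in the lateral library, against 37.5 and 55.7 CPM in the medial and lateral red libraries. The counts are small and the change of 1.11 ± 0.43 on the log2 scale did not pass (SE, adjusted p = 0.116). Endothelial-like cells had 40.5 and 20.04 CPM in the medial and lateral white libraries, against 18.2 and 28.3 CPM in the red libraries, with overlapping groups. The zone effect in myeloid-like cells nevertheless differed from that in matrix-like cells by 2.62 ± 0.47 (SE, edgeR interaction, adjusted p = 5.89e-06, 7.49% of genes called) and from that in fibrochondrocyte-like cells by 2.01 ± 0.48 (SE, adjusted p = 0.00312, 4.84% called). Both were also called without cells of a second list (3.01 and 2.35), an alternative added after the data were seen, and without TMM scaling (3.44 and 2.70). Between endothelial-like and matrix-like cells it differed by 1.75 ± 0.47 (SE, adjusted p = 0.0199, 12.4% called), a call not made by DESeq2 (adjusted p = 0.0575, range over the alternatives 0.00068 to 0.0575). In the red zone fibroblast-like cells had 82.2 and 118 CPM in the medial and lateral library and mural-like cells 58.3 and 99.0 CPM, ranges that overlap.

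**Figure D2:**
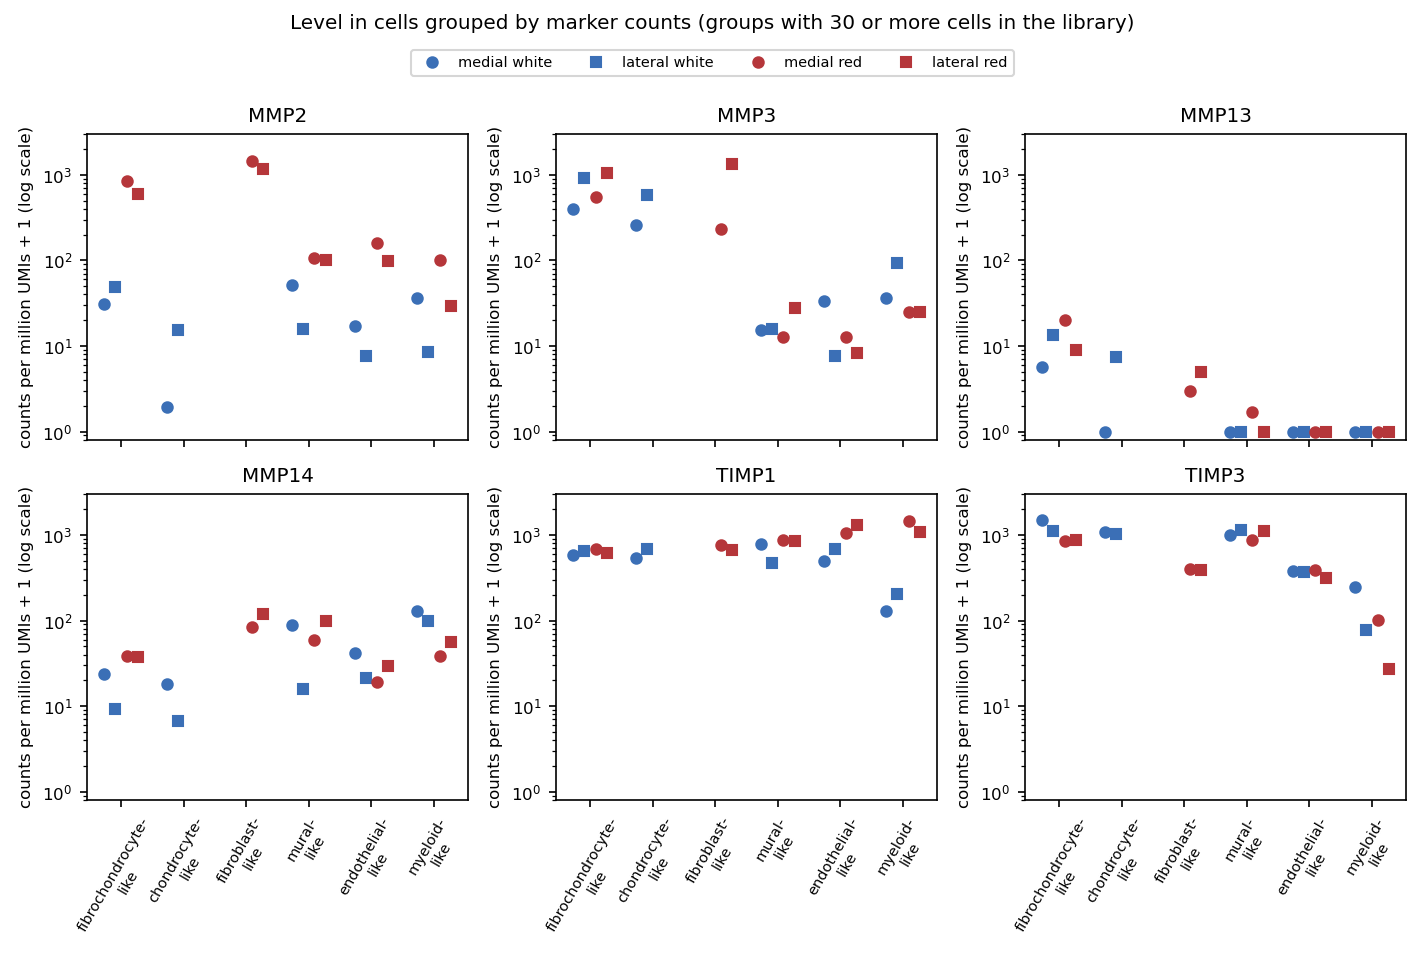
Level in CPM plus 1, on a log scale, of each member in cells grouped by marker counts, with white zone libraries in blue and red zone libraries in red, circles for medial and squares for lateral menisci; a library with fewer than 30 cells of a group is left out. MMP3 and MMP13, and MMP2 in the red zone, lie highest in fibroblast-like or fibrochondrocyte-like cells. Among the groups plotted TIMP1 lies lowest in myeloid-like cells of the white zone and highest in myeloid-like and endothelial-like cells of the red zone.

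MMP3, with the limit on its identity given above, was the metalloproteinase with the most UMIs in the white zone, and it was lower in the medial than in the lateral library of both zones. Over all cells it had 357 CPM (5323 UMIs) in the medial and 796 CPM (10924 UMIs) in the lateral white library, against 234 CPM (2767 UMIs) in the medial and 613 CPM (5688 UMIs) in the lateral red library. White and red libraries overlapped, and within each meniscus the white library was higher, by 1.53-fold in the medial and 1.30-fold in the lateral meniscus. The change between zones was 0.99 ± 0.22 on the log2 scale (SE, edgeR adjusted p = 0.00864). It rests in part on the scaling, since scaling by library totals alone in place of TMM shifted the median of all genes by -0.49 and left MMP3 at 0.49 (adjusted p = 0.0953). It was also lost without the meniscus as a term (adjusted p = 0.203). Fits with a library left out drop that term too, so the zones then hold unequal menisci. With MMP3 lower in the medial libraries, such fits shift its zone change by construction. They gave 0.19 without the lateral white library, 0.41 without the medial red library and up to 1.84 over the 4 fits.

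Within matrix-like cells MMP3 was not called between zones. It stood at 374 and 825 CPM in the medial and lateral white libraries, against 383 and 1151 CPM in the medial and lateral red libraries (0.08 ± 0.28 SE, adjusted p = 0.839), and the sign turned with the scaling (-0.26 by library totals). In fibrochondrocyte-like cells the change was -0.10 ± 0.25 (SE, adjusted p = 0.806). Vessel and immune cells held little of it. Mural-like, endothelial-like and myeloid-like cells stood between 0.638% and 11% of the matrix-like level in each library. COMP, a matrix protein that these cells should lack and a marker of the fibrochondrocyte list, stood there between 0.927% and 9.49%. As a marker it is held low in these groups by the grouping itself.

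The difference between menisci missed the threshold of the edgeR test. In the medial library MMP3 was 2.23-fold lower than in the lateral library in the white zone and 2.62-fold lower in the red zone. The log2 fold change of medial over lateral was -1.35 ± 0.22 (SE) with an unadjusted p of 0.000274 and an adjusted p of 0.142 by edgeR, so that it was not called. DESeq2 called it (adjusted p = 1.67e-05), as did edgeR without the filter on low counts (adjusted p = 1.87e-05), and over the alternatives the adjusted p ranged from 1.67e-05 to 1. The same order of levels was seen in fibroblast-like cells of the red zone, with 235 CPM (medial) and 1349 CPM (lateral), and in fibrochondrocyte-like cells, with 393 CPM medial and 920 CPM lateral in the white zone and 555 CPM medial and 1056 CPM lateral in the red zone. An MMP3 UMI was found in 22.3% of medial (interval 21.3 to 23.2) and 41.4% of lateral (40.2 to 42.5) white zone matrix-like cells, and in 24.6% of medial (23.2 to 26.0) and 51.6% of lateral (49.7 to 53.6) red zone matrix-like cells. Thinned to 1000 UMIs these shares were 16.2%, 31.5%, 19.4% and 42.4%. In endothelial-like cells at most 1.05% of cells in any library had an MMP3 UMI. No member was called between menisci by edgeR, 1 of 6 had an unadjusted p under 0.05, and 8 of 12463 genes (0.0642%) were called. Of the other members, MMP2 changed by 0.11, MMP13 by -0.77, MMP14 by 0.32, TIMP1 by -0.09 and TIMP3 by 0.05 on the log2 scale, none of them past the test.

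MMP13, the collagenase of cartilage, was rare and was carried by few cells. The 4 libraries held 397 MMP13 UMIs in 110 cells, and 12 cells with 5 or more UMIs held 253 of them (63.7%). Over all cells it had 5.17 CPM (77 UMIs, exact 95% Poisson interval 4.08 to 6.46 CPM) in the medial and 15.8 CPM (217 UMIs, 13.8 to 18.1 CPM) in the lateral white library. The red libraries had 5.66 CPM (67 UMIs, 4.38 to 7.18 CPM) in the medial and 3.88 CPM (36 UMIs, 2.72 to 5.37 CPM) in the lateral meniscus. White and red libraries overlapped, and in the medial meniscus their intervals did too. The change of 1.43 ± 0.47 on the log2 scale had an adjusted p of 0.0419 by edgeR, with a range of 1.54e-06 to 0.222 over the alternatives, and it was lost without the lateral white library (0.54, adjusted p = 0.222), without either red library, with scaling by library totals (0.94, adjusted p = 0.0741) and with doublets removed at the expected rate (1.64, adjusted p = 0.0608).

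A single cell carried 35.9% of the MMP13 UMIs of the lateral white library. It held 3322 UMIs in all and fitted no marker group, and among them were 78 of MMP13, 28 of MMP14 and 20 of MMP9, the gelatinase of osteoclasts and leukocytes. The library had 24 MMP9 UMIs altogether, and the cell also held 17.8% of its MMP14 UMIs. No UMI of SPP1 or of ACP5, the osteoclast phosphatase, was found in it. Without this cell, a choice made after its values were seen, the lateral white library had 10.1 CPM of MMP13 and 9.41 CPM of MMP14, and the change of MMP13 between zones was 1.095 on the log2 scale (adjusted p = 0.0498).

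**Figure D3:**
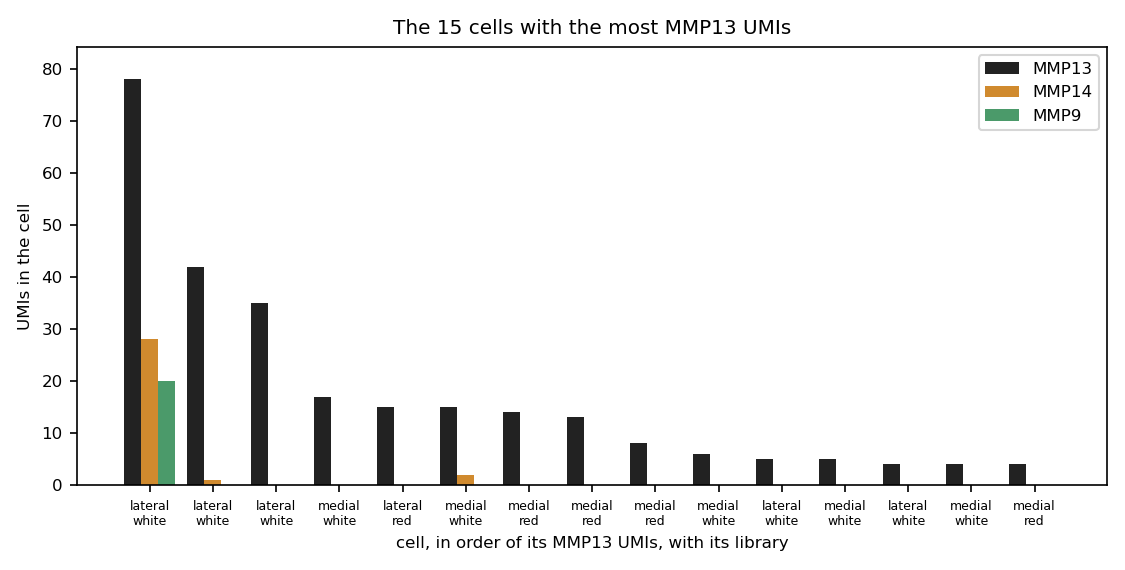
UMIs of MMP13, MMP14 and MMP9 in each of the 15 cells with the most MMP13 UMIs, in order, with the library of each cell beneath. The first cell stands apart with 78 MMP13 UMIs, 28 MMP14 UMIs and 20 MMP9 UMIs, and the other cells hold no MMP9 UMI.

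Cells rich in MMP13 were mostly matrix cells. Of the 12 cells with 5 or more UMIs, 10 were fibrochondrocyte-like and 2 were ungrouped, among them the cell described above. Of the 12, 9 had an SPP1 UMI and 9 had no MMP14 UMI. SPP1, osteopontin, was found in 73.8% of all cells of the lateral white library, so that in that library its presence is not particular to them. Most of the 12 cells came from other libraries, for which the share of cells with SPP1 was not computed. Fibrochondrocyte-like cells stood at 4.75 and 12.4 CPM of MMP13 in the medial and lateral white libraries, against 19.1 and 7.96 CPM in the medial and lateral red libraries, and the change of -0.50 ± 0.42 (SE, adjusted p = 0.412) did not pass and had the other sign from that over all cells. In matrix-like cells it was 0.06 ± 0.36 (SE, adjusted p = 0.915). No MMP13 UMI was found in endothelial-like or myeloid-like cells of any library, and 1 was found in mural-like cells, in the medial red library. MMP13 could therefore not be tested in these groups.

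TIMP3, the inhibitor bound to the matrix, was higher in the white zone and highest in fibrochondrocyte-like, chondrocyte-like and mural-like cells. Over all cells it had 1402 CPM (20899 UMIs) in the medial and 1052 CPM (14426 UMIs) in the lateral white library, against 550 CPM (6510 UMIs) in the medial and 613 CPM (5693 UMIs) in the lateral red library. Both white libraries lay above both red libraries, and the change was 1.56 ± 0.27 on the log2 scale (SE, edgeR adjusted p = 0.00259). It was called under every one of the 11 alternatives run, with values from 1.06 to 1.71. In matrix-like cells it stood at 1450 and 1075 CPM in the medial and lateral white libraries, against 607 and 732 CPM in the medial and lateral red libraries (1.25 ± 0.31 SE, adjusted p = 0.00457), a call lost without either red library (adjusted p = 0.177 without the medial and 0.0524 without the lateral, range over the alternatives 0.000145 to 0.177). In fibrochondrocyte-like cells the 4 values were 1508 and 1099 CPM in the white and 840 and 873 CPM in the red zone, and the change of 0.83 ± 0.28 passed by edgeR (SE, adjusted p = 0.0315). That call was lost under 8 of 12 alternatives (adjusted p from 0.00989 to 0.418), with the direction kept. Chondrocyte-like cells stood at 1090 and 1026 CPM in the medial and lateral white libraries. The 9 and 21 such cells of the medial and lateral red libraries stood at 1282 and 1480 CPM, and they were too few to be tested.

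TIMP3 was not called between zones in mural-like or endothelial-like cells. Mural-like cells stood at 996 and 1132 CPM in the medial and lateral white libraries, against 873 and 1098 CPM in the medial and lateral red libraries, with overlapping groups (0.06 ± 0.27 SE, adjusted p = 0.937). Endothelial-like cells stood at 383 and 367 CPM in the white and 389 and 315 CPM in the red zone (-0.09 ± 0.25 SE, adjusted p = 0.871). The zone effect in matrix-like cells differed from both. The difference was -1.34 ± 0.29 for mural-like minus matrix-like cells (SE, edgeR interaction, adjusted p = 0.00346, 9.48% of genes called). For endothelial-like minus matrix-like cells it was -1.50 ± 0.32 (SE, adjusted p = 0.0044, 12.4% called). Scaling by library totals brought these to -0.79 and -0.83, both still called, and the median of all genes in these comparisons from -0.23 to 0.32 and from -0.18 to 0.47. Against fibrochondrocyte-like cells alone neither difference passed (adjusted p = 0.0747 and 0.0655). Leaving out groups of under 100 cells, the order of levels in the red zone was mural-like, fibrochondrocyte-like, fibroblast-like, endothelial-like and myeloid-like, and fibroblast-like cells, with 400 and 385 CPM, overlapped endothelial-like cells.

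Myeloid-like cells had the lowest TIMP3 of the 5 groups tested, with 248 CPM (21 UMIs) in the medial and 76.0 CPM (10 UMIs) in the lateral white library, against 101 CPM (102 UMIs) and 26.2 CPM (24 UMIs) in the medial and lateral red libraries. The groups overlapped. The change of 1.21 ± 0.38 passed by edgeR (SE, adjusted p = 0.0304, 6.18% of genes called) but not by DESeq2 (adjusted p = 0.778), and 16 of the 21 UMIs of the medial white library lay in 1 cell. Over the alternatives the adjusted p ranged from 0.000897 to 0.954. Without cells that also had markers of a second list, the white libraries had 0 CPM in the medial and 9.76 CPM (1 UMI) in the lateral meniscus, against 26.7 CPM (22 UMIs) and 7.36 CPM (6 UMIs) in the medial and lateral red libraries. The higher mean of the white zone was then gone, and the counts were too low to be tested. As a share of the matrix-like level, TIMP3 stood at 17.1% and 7.07% in the medial and lateral white libraries, and FMOD, a matrix proteoglycan and fibrochondrocyte marker, at 15.8% and 8.40%. As a marker FMOD is held low in myeloid-like cells by the grouping itself. The part of free RNA in this call was not tested.

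**Figure D4:**
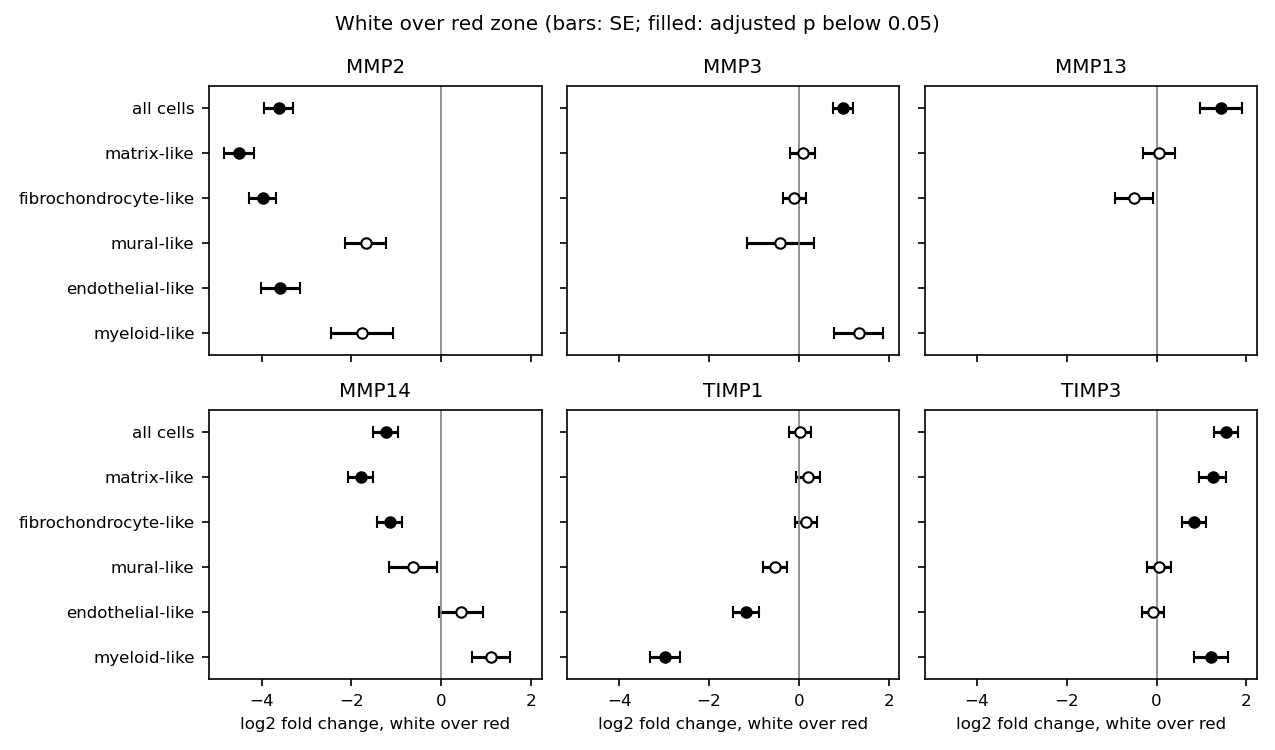
Log2 fold change of white over red zone with its SE for each member over all cells and in each cell group tested, filled where the adjusted p is below 0.05 and open where it is not; a missing point was not tested for low counts. MMP2 and MMP14 lie below 0 and TIMP3 above 0 in matrix-like and fibrochondrocyte-like cells, while TIMP1 lies below 0 in endothelial-like and myeloid-like cells.

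TIMP1, the soluble inhibitor, was not called between zones over all cells, and was lower in white zone endothelial-like and myeloid-like cells. Over all cells it had 575 CPM (8576 UMIs) in the medial and 650 CPM (8924 UMIs) in the lateral white library, against 891 CPM (10554 UMIs) in the medial and 795 CPM (7381 UMIs) in the lateral red library. The CPM of the groups did not overlap, yet the TMM-scaled change was 0.03 ± 0.24 (SE, adjusted p = 0.932), and by library totals it was -0.46 (adjusted p = 0.145). In matrix-like cells, where it stood at 581 and 656 CPM in the white and 727 and 633 CPM in the red zone, the change was 0.21 ± 0.27 (SE, adjusted p = 0.597). A TIMP1 UMI was found in 60.5% and 61.2% of medial and lateral white zone matrix-like cells and in 64.6% and 62.3% of those of the red zone. Thinned to 1000 UMIs these shares were 42.5%, 45.1%, 49.2% and 44.9%.

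In myeloid-like cells TIMP1 stood at 130 CPM (11 UMIs) in the medial and 205 CPM (27 UMIs) in the lateral white library, against 1438 CPM (1455 UMIs) in the medial and 1077 CPM (986 UMIs) in the lateral red library. The white zone was lower by 11-fold in the medial and 5.25-fold in the lateral meniscus, and the change was -2.98 ± 0.34 on the log2 scale (SE, edgeR adjusted p = 2.19e-15). It was called under all 12 alternatives run. Without cells that had markers of a second list it was -4.34, with 48.1 and 87.8 CPM in the white libraries, against 1570 and 1111 CPM in the red libraries. A TIMP1 UMI was found in 5 of 50 and 11 of 72 white zone cells (10.0%, interval 3.33 to 21.8, and 15.3%, 7.88 to 25.7), against 41.3% (37.5 to 45.2) and 38.9% (35.0 to 43.0) in the red zone. Thinned, the shares were 2.56% and 11.5% in the white and 37.0% and 35.6% in the red zone. Median depths were 1364 and 1594 UMIs in the white and 1367 and 1454 in the red zone. The 50 and 72 white zone cells were few, and whether they are the same kind of myeloid cell as those of the red zone was not tested.

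Endothelial-like cells had 494 and 688 CPM of TIMP1 in the medial and lateral white libraries, against 1059 and 1291 CPM in the medial and lateral red libraries. The groups did not overlap, and the change of -1.18 ± 0.28 passed (SE, edgeR adjusted p = 0.000724). It was lost without the medial white library (adjusted p = 0.145), and over the alternatives the adjusted p ranged from 8.15e-05 to 0.145. Mural-like cells had 785 and 472 CPM in the white and 868 and 846 CPM in the red zone, which did not pass (-0.53 ± 0.27 SE, adjusted p = 0.351). In the red zone myeloid-like and endothelial-like cells led the order and overlapped each other. Of the 6 groups with 30 or more cells in both red libraries, fibrochondrocyte-like cells, with 688 and 607 CPM, had the lowest mean and overlapped fibroblast-like and T or NK cell-like cells. The 81 B or plasma cell-like cells of the lateral red library stood lower, at 114 CPM (35 UMIs).

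The zone effect on TIMP1 differed between groups in 6 of 9 pairs. In myeloid-like cells it was lower than in matrix-like cells by 3.58 ± 0.39 (as a difference of -3.58, SE, edgeR interaction, adjusted p = 1.24e-15, 7.49% of genes called). It was also lower there than in fibrochondrocyte-like cells (-3.51 ± 0.42 SE, adjusted p = 1.48e-10, 4.84% called). It was also lower in myeloid-like cells than in endothelial-like cells, with a difference of 1.82 ± 0.30 for endothelial-like minus myeloid-like (SE, adjusted p = 0.00243, 1.5% of genes called), and than in mural-like cells, with 2.36 ± 0.40 for mural-like minus myeloid-like (SE, adjusted p = 0.0152, 0.485% called), a call lost with at least 2 markers (adjusted p = 0.0834). Endothelial-like cells differed from matrix-like cells by -1.55 ± 0.29 (SE, adjusted p = 0.00145, 12.4% called) and from fibrochondrocyte-like cells by -1.41 ± 0.32 (SE, adjusted p = 0.00517, 9.48% called). Scaling by library totals brought these 2 to -0.87 and -0.93, still called. No member's zone effect was called different between endothelial-like and mural-like cells by edgeR or DESeq2, where 2 had an unadjusted p under 0.05 and edgeR called 2.37% of genes. Without cells of a second list, chosen after the data were seen, TIMP1 passed there (-0.83, adjusted p = 0.0225).

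The UMIs of the 2 inhibitors and the 4 proteases were also summed in each library. Over all cells there were 4.76 and 1.97 TIMP UMIs for each MMP UMI in the medial and lateral white libraries, against 1.38 and 1.25 in the medial and lateral red libraries. In matrix-like cells the ratio was 4.73 and 1.96 in the white zone, against 0.822 and 0.684 in the red zone, and in fibrochondrocyte-like cells it was 4.64 and 1.76, against 1.05 and 0.870. Both white libraries lay above both red libraries in all 3 sets of cells. In myeloid-like cells the order was the opposite, with 1.88 and 1.42 in the white zone, from 17 and 26 MMP UMIs, against 9.55 and 10.2 in the red zone. The ratio holds TIMP1 and TIMP3 only and MMP2, MMP3, MMP13 and MMP14 only, so it counts RNA of these rows and not the balance of the whole families. An exact permutation test of 2 against 2 libraries cannot go below a p of 0.33, and none was run.

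**Figure D5:**
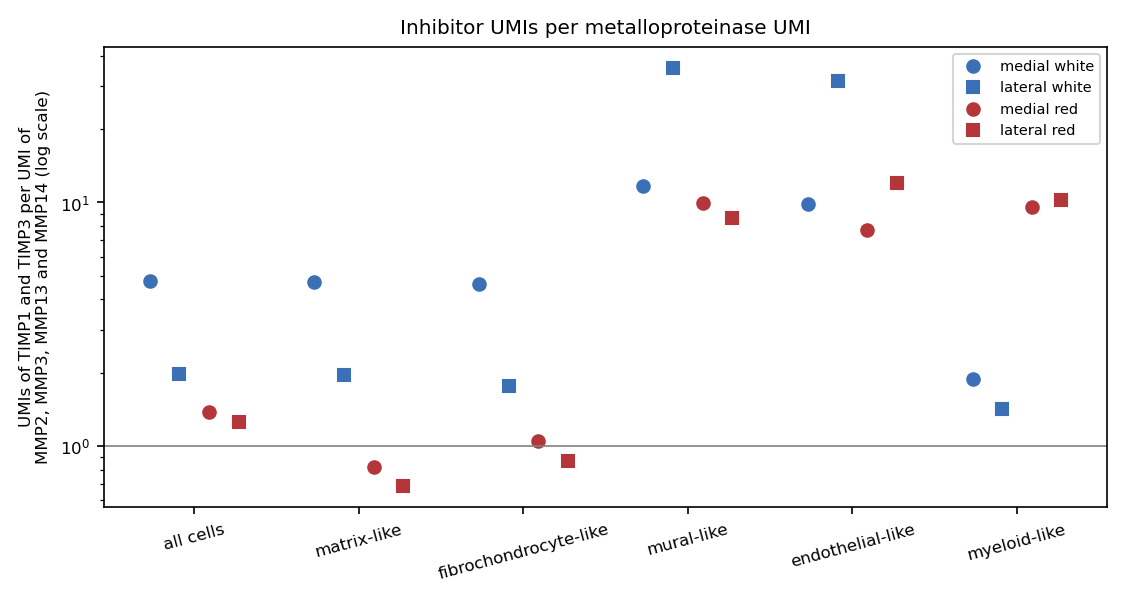
UMIs of TIMP1 and TIMP3 for each UMI of MMP2, MMP3, MMP13 and MMP14, on a log scale, over all cells and by cell group, with white zone libraries in blue and red zone libraries in red, circles for medial and squares for lateral menisci; the grey line marks equal numbers. The white zone lies above the red zone in matrix-like and fibrochondrocyte-like cells and below it in myeloid-like cells.

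Within single matrix-like cells, thinned to 1000 UMIs, the pairs with MMP2 and the pair of inhibitors are described here. In the red zone a TIMP3 UMI was found in 34.9% of medial and 35.5% of lateral cells with an MMP2 UMI, against 42.9% and 50.8% of cells without one. An MMP14 UMI was found in 6.27% and 7.32% of these MMP2-bearing cells, against 3.84% and 4.23% of the others. In the white zone the 2 libraries differed. TIMP3 was found in 72.9% of medial and 47.6% of lateral cells with MMP2, against 65.1% and 56.7% of those without. For MMP14 these were 4.52% and 0.529% (1 cell), against 2.00% and 0.702%. MMP2 and MMP3 were found together 1.195 and 1.28 times as often as the product of their frequencies gives in the medial and lateral white zone. In the red zone this was 0.881 and 1.02 times. For MMP2 and TIMP1 it was 1.06 and 0.833 times in the white and 1.01 and 1.03 times in the red zone. MMP13 was in only 6 to 21 of these cells per library, and its pair is left out. TIMP1 and TIMP3 were found together 1.00 and 0.980 times as often as the product of their frequencies gives in the medial and lateral white zone and 0.997 and 0.9497 times in the red zone. These are descriptions of cells that share a library and differ in group, and no test was made.

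The genes whose level was most like that of a member over the 23 sums of library and cell group, by Pearson's r of log2(CPM + 10) among 4955 genes, are given as a description. For MMP2 they were MFAP5 (r = 0.93), SFRP2 (0.92) and POSTN (0.91). MFAP5 and SFRP2 are themselves fibroblast markers used in the grouping. MMP3 was most like LPAR1, CAPN6 and PTN (r between 0.92 and 0.93), and MMP13 most like FAM180B (0.89), MKX and ANGPTL7 (both 0.83), ANGPTL7 again a marker of the grouping. For MMP14 the 3 genes were LRRK2 (0.88), CMTM3 and PLAUR (both 0.87). For TIMP1 they were PNRC1 (0.81), FEM1C (0.80) and SHFL (0.77), and for TIMP3 PAPSS1 (0.93), LTBP1 (0.93) and ENPP1 (0.92). The sums share libraries and depth.

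Of 19 other members of the 2 families, 16 had a row and 11 could be tested over all cells, where 1 was higher and 4 were lower in the white zone, with a median log2 fold change of -0.66 beside -0.01 for all genes. Of all genes 17.8% were higher and 22% lower, so the 5 of 11 called lie near the 39.8% of the background. MMP11, or stromelysin 3, had 1.74 and 1.60 CPM in the medial and lateral white libraries, against 11.0 and 9.48 CPM in the medial and lateral red libraries (-2.12 ± 0.29 SE, edgeR adjusted p = 0.00089). MMP15, a membrane-anchored enzyme (-1.90 ± 0.48 SE, adjusted p = 0.0142), and MMP25 (-1.60 ± 0.45 SE, adjusted p = 0.023) were lower over all cells, at levels below 6 CPM in each library. MMP11, MMP15 and MMP25 also passed in matrix-like cells, but MMP11 and MMP25 did not in fibrochondrocyte-like cells (adjusted p = 0.0958 and 0.0675). In endothelial-like cells MMP15 had 21.6 and 33.4 CPM in the medial and lateral white libraries, against 13.7 and 6.29 CPM in the red libraries (adjusted p = 0.232). MMP7 (2.87 ± 0.69 SE, adjusted p = 0.0116) was higher over all cells, from 15 UMIs in each white library against 2 in each red library. MMP16, a membrane-anchored relative of MMP14, had 61.9 and 70.6 CPM in the white and 86.4 and 78.5 CPM in the red zone. MMP23B had 35.8 and 30.3 CPM in the white zone and 96.6 and 54.6 CPM in the red zone. MMP8, the collagenase of neutrophils, had 3.29 CPM (medial) and 21.1 CPM (lateral) in the white libraries and 5.06 CPM (medial) and 12.9 CPM (lateral) in the red libraries, and was not called between menisci. Its UMIs lay almost all in matrix-like cells, with 49 of 49 and 283 of 290 in the medial and lateral white libraries. In the medial and lateral red libraries these were 57 of 60 and 115 of 120. No gene of the list was called between menisci by edgeR.

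Genes that activate, anchor or otherwise inhibit these enzymes are given by their counts. Of 20 listed, 15 could be tested, 2 were higher and 9 lower over all cells, with a median of -1.13, and in matrix-like cells 1 was higher and 12 of 15 were lower. Of all genes tested 17.8% were higher and 22% lower over all cells, and 35% were called in matrix-like cells. PLAU, the urokinase that makes plasmin, had 8.92 and 7.51 CPM in the medial and lateral white libraries, against 375 and 401 CPM in the medial and lateral red libraries (-5.07 ± 0.22 SE, edgeR adjusted p = 1.2e-05). PLAT, the tissue plasminogen activator (-3.41 ± 0.19 SE), A2M, a broad protease trap (-3.82 ± 0.30 SE), and SPOCK2, a proteoglycan (-3.21 ± 0.28 SE), also passed. A2M did not pass within matrix-like cells (adjusted p = 0.204). Of 20 cytokines and transcription factors known to induce metalloproteinases, 16 could be tested, 1 was higher and 9 were lower over all cells, with a median of -0.97, and 2 were higher and 9 of 14 lower in matrix-like cells, beside the same shares of all genes. IL6 had 1.48 and 6.78 CPM in the white zone and 81.5 and 148 CPM in the red zone (-4.48 ± 0.32 SE, adjusted p = 4.7e-05). ETS2 (-1.85 ± 0.19 SE), RUNX2, the factor of hypertrophic cartilage (-4.13 ± 0.46 SE), and IL1R1, the interleukin 1 receptor (-1.02 ± 0.17 SE), passed as well. RUNX2 stood at only 0.134 and 0.583 CPM in the medial and lateral white libraries. IL1R1 did not pass in fibrochondrocyte-like cells (0.17 ± 0.22 SE, edgeR adjusted p = 0.625). It passed in matrix-like (-0.69), mural-like (-1.67) and endothelial-like cells (-3.18). The lists were described by counts and were not tested as sets.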

How the data were processed

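The authors deposited 10x 3' single-cell matrices of UMI counts per gene and cell, made with Cell Ranger 6.1.2 on Sscrofa11.1 per the submitters' processing notes. Barcodes under 500 UMIs, under 200 genes or over 20% mitochondrial counts (13 genes) were removed, as were Scrublet calls. Scrublet marked 112 cells in the lateral red library and 0 in the other libraries, where it did not work, and an alternative removed the highest scores at the expected rate. Cells were grouped by marker counts, and counts were summed per library and group where each library had at least 30 cells. Sums were tested with edgeR 4.0.16 (quasi-likelihood, TMM, filter on low counts, zone and meniscus as terms, 1 residual degree of freedom) with Benjamini-Hochberg adjustment over all genes tested. With so few degrees of freedom the spread of a gene was estimated with information from all genes, so a very small p does not show a small spread of that gene. Differences of zone effects between groups were interactions over 8 sums, with 2 residual degrees of freedom, in 9 pairs of groups. Alternatives were DESeq2 1.42.0, no filter, no TMM, no meniscus term (the replicate block), other marker minimums and removal of cells with a second list. A second list meant at least 3 markers of another lineage, and for the differences between groups this alternative was chosen after seeing the data. Each library was also left out in turn. The fits with a library left out drop the meniscus term as well, so that the zones then differ in their menisci. On simulated data for the zones over all cells (12463 genes), 65 of 100 genes changed 2-fold and 98 of 100 changed 4-fold were found, with 13 false calls. Recovery was lower in the other tests. For the zones within cell groups, 22 to 48 of 100 changed 2-fold and 76 to 97 of 100 changed 4-fold were found. For differences between groups these were 0 to 14 and 26 to 68 of 100, so that an uncalled difference is not shown to be absent. Poisson and binomial intervals are exact, at 95%, and cover counting error only. All 6 members with a row are named, with the up to 4 genes of lowest p per list and the 3 genes most like each member. Members and lists were chosen with earlier results of these data known. No sequences were used here.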

Additional observations from a re-analysis of the deposited data

Results flagged for a closer look

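In 13 tests the zone effect (white over red, log2) on a member differed between cell groups by the edgeR interaction test, over 2 libraries per zone. In each of 9 pairs of groups 5 or 6 members were tested. Against matrix-like cells 12.4% (endothelial-like), 9.48% (mural-like) and 7.49% (myeloid-like) of all genes were called. Against fibrochondrocyte-like cells these shares were 9.48%, 8.11% and 4.84%. They were 1.5% for endothelial-like and 0.485% for mural-like minus myeloid-like cells. For TIMP1 the difference was -3.58 for myeloid-like minus matrix-like cells (adjusted p = 1.24e-15) and -3.51 for myeloid-like minus fibrochondrocyte-like cells (adjusted p = 1.48e-10). It was 1.82 for endothelial-like minus myeloid-like cells (adjusted p = 0.00243) and 2.36 for mural-like minus myeloid-like cells (adjusted p = 0.0152). It was -1.55 for endothelial-like minus matrix-like cells (adjusted p = 0.00145) and -1.41 for endothelial-like minus fibrochondrocyte-like cells (adjusted p = 0.00517). For MMP14 it was 2.62 for myeloid-like minus matrix-like cells (adjusted p = 5.89e-06), 2.01 for myeloid-like minus fibrochondrocyte-like cells (adjusted p = 0.00312) and 1.75 for endothelial-like minus matrix-like cells (adjusted p = 0.0199). For MMP2 it was 2.66 for mural-like minus matrix-like cells (adjusted p = 0.0137) and 2.13 for mural-like minus fibrochondrocyte-like cells (adjusted p = 0.0347). For TIMP3 it was -1.34 for mural-like minus matrix-like cells (adjusted p = 0.00346) and -1.50 for endothelial-like minus matrix-like cells (adjusted p = 0.0044). Both MMP2 differences were lost without the cells that had markers of a second list (0.15 and -0.39, adjusted p = 0.984 and 0.922). Matrix-like cells include the fibrochondrocyte-like cells, so the tests against the 2 are not independent.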

How the results depend on the processing

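Of 612 log2 fold changes and differences recomputed under an alternative, 516 kept direction and side of the threshold, 40 lost the call, 13 gained one and 43 changed sign. Between zones over all cells 3 members were called without TMM and 3 to 5 with a library left out. Between menisci 1 was called without the filter and 1 by DESeq2. With a library left out 1 to 2 members were called in endothelial-like, 1 to 2 in fibrochondrocyte-like, 1 to 3 in matrix-like, 0 to 2 in mural-like and 1 to 2 in myeloid-like cells. Without the replicate block (the meniscus term) 1 was called in fibrochondrocyte-like and 1 in myeloid-like cells, and the zone change of MMP3 over all cells was 0.95 (adjusted p = 0.203). In mural-like cells 1 was called without the filter, with at least 2 markers, and with cells of a second list left out. In myeloid-like cells 1 was called without the filter, by DESeq2, with expected-rate doublet removal, with at least 4 markers, and with cells of a second list left out. The shares of all genes called under these alternatives are not given, so such counts are no result about the members. Of the differences between groups, 13 in the fits reported, 11 were called by DESeq2, 11 with at least 2 markers, 17 without TMM and 12 without cells of a second list, an alternative added after the data were seen. Here too the shares of all genes are not given. Without TMM the median of all genes moved as well, from -0.18 to 0.47 for endothelial-like minus matrix-like cells. For myeloid-like minus matrix-like cells it moved from -0.53 to 0.28. Without TMM the zone change turned to -0.46 for TIMP1 over all cells, 0.0905 for TIMP3 in endothelial-like cells and -0.0773 for TIMP1 in fibrochondrocyte-like cells. In matrix-like cells it turned to -0.26 for MMP3, -0.28 for MMP13 and -0.14 for TIMP1. MMP3 in matrix-like cells was -0.00867 without the block, and TIMP3 in mural-like cells was -0.061 without the filter. The TIMP3 difference of myeloid-like minus matrix-like cells turned to 0.44 without TMM and 0.0392 by DESeq2. None of these values was called in the fits reported, and the cause was not tested. Without cells of a second list the MMP2 difference of mural-like minus matrix-like cells fell to 0.15, and that of mural-like minus fibrochondrocyte-like cells, called with all cells, turned to -0.39. Uncalled MMP2 differences turned to -1.70 (endothelial-like minus fibrochondrocyte-like), -1.20 (endothelial-like minus matrix-like), 1.26 (endothelial-like minus myeloid-like), 1.64 (mural-like minus myeloid-like), -4.32 (myeloid-like minus fibrochondrocyte-like) and -4.24 (myeloid-like minus matrix-like). Those of TIMP3 turned to 1.81 (endothelial-like minus myeloid-like), 1.95 (mural-like minus myeloid-like) and -2.56 (myeloid-like minus fibrochondrocyte-like). Several rest on sums with 0 or 1 UMI, so that the fitted sizes depend on the prior count.

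Fits with a library left out drop the second term, so that the menisci then differ in their zones, and the zones in their menisci, by construction. Between menisci they gave -2.70 to 2.78 for MMP2, -1.89 to 0.68 for MMP13, -0.52 to 1.31 for MMP14, -0.20 to 0.0476 for TIMP1 and -0.99 to 0.98 for TIMP3. Between zones they gave -0.11 to 0.18 for TIMP1 over all cells, and -0.35 to 0.64 for MMP14 and -0.27 to 0.12 for TIMP3 in endothelial-like cells. In fibrochondrocyte-like cells they gave -0.87 to 0.59 for MMP3 and -1.31 to 0.29 for MMP13, and in matrix-like cells -0.77 to 1.06 for MMP3 and -0.66 to 0.77 for MMP13. In mural-like cells they gave -2.47 to 0.11 for MMP14 and -0.0363 to 0.19 for TIMP3. Fibroblast-like and chondrocyte-like cells were too few in 1 zone for any fit, and differences for MMP13 with an SE above 3 were left out. The low counts of MMP13, and of the white zone sums of mural-like, endothelial-like and myeloid-like cells, limit what these tests can show.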
